A study of Mus musculus with 8 samples.

Results

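The 10 genes described here are Ccng1, Mdm2, Plk2, Zmat3, Phlda3, Ddit4l, Sesn1, Sesn2, Trp53inp1 and Ephx1, known in mouse and human cells as genes that the transcription factor p53 switches on during growth arrest and stress. They were selected on the CKO and WT intensities of these same arrays, as 10 of 16593 gene symbols, and every probe annotated to them was used, 18 of 25697 probes. RNA of cerebellar tissue was taken from mice at embryonic day 17.5 and measured on Illumina BeadArrays, an array per animal. The CKO animals were 4 conditional knockouts (CKO), homozygous for the floxed Pals1 allele (Pals1 fl/fl) and positive for hGFAP-Cre. This transgene expresses Cre recombinase from the human GFAP promoter in most neurons and glia of the cerebellum, so that blood vessels, meninges and microglia are not its stated targets. The controls, labelled WT, were 4 animals that also carried Pals1 fl/fl but no Cre. Pals1, encoded by Mpp5, is a scaffold of the apical polarity complex of epithelial and progenitor cells.

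p53 is held at a low level by the ubiquitin ligase Mdm2 and accumulates after DNA damage, replication stress or loss of growth signals. It binds a response element built of a pair of 10-base half-sites and induces genes that stop the cell cycle, restrain the growth pathway of Akt and mTOR, repair damage or start cell death. In the embryonic cerebellum the main dividing population is the granule cell progenitors, which are known to depend on cyclin D and Sonic hedgehog signalling and to be sensitive to p53.

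The targeted gene was low on all 4 CKO arrays. The brighter Mpp5 probe read 92.8, 80.2, 87 and 77.5 in CKO and 156.2, 152.7, 143.8 and 139.7 in WT in raw intensity, and fell in CKO (limma adjusted p = 8.47e-06; exact two-sided permutation p = 0.0286, the smallest that 70 assignments allow). Of the CKO arrays 3 lay below the filter on dim probes, so the fall is given as a bound, at least 1.74-fold lower in CKO with those arrays raised to the filter level. The fitted log2 difference of -0.87 (SE 0.07) was -1.34 with a normexp offset of 16 and -0.42 as the mean of both Mpp5 probes, the other of which, ILMN_2590811, was below the filter in both groups and differed by 0.03. Array medians of raw intensity lay between 118.7 and 133.5 in CKO and between 124.1 and 132.3 in WT. The cerebellar label was borne out by Pcp2, a Purkinje cell gene, at a normalized log2 level of 12.22 in CKO and 11.64 in WT. Xist, which coats the silenced X in females, read 112.1 to 116 on all CKO arrays, against 122.9 in WT.3 and 830.9 to 1210.7 on the other WT arrays, so high Xist was confined to 3 WT arrays and cannot be told apart from genotype in them. At an adjusted p of 0.05, limma called 1182 genes up and 1115 down in CKO out of 12912 tested, and 792 up and 1337 down when arrays were scaled to a common median.

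Of the 10 genes, 9 were higher in CKO and 1, Sesn1, was lower, with a median log2 difference (CKO minus WT) of 0.58 against 0.0075 over all genes tested. Because of that selection their differences are a description and carry no test. All 10 passed the filter on dim probes. For 8 members the limma fit put the higher level in CKO past the threshold (9.15% of all genes tested) and for 1 the lower level (8.64% of all genes). With the Xist covariate those counts were 6 and 0. Every CKO array lay above every WT array for 9 members on the normalized scale (10.9% of all genes) and below for 1 (10.2%). Nothing is read from these counts, since the choice of members fixed them. The cells behind a value are unknown in whole tissue, where fewer cells of a type and less RNA per cell cannot be told apart.

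**Figure D1:**
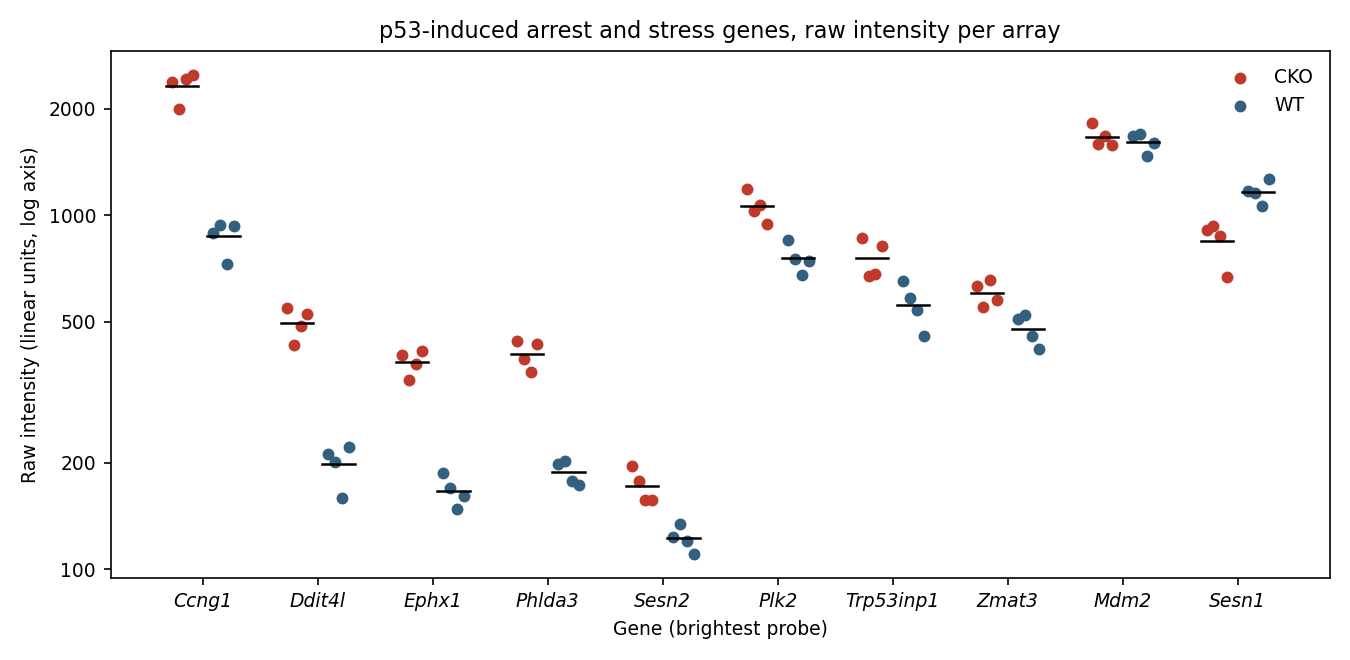
Raw intensity (linear units on a log axis) of the brightest probe of each gene, with a point per array, 4 CKO arrays left and 4 WT arrays right, and a line at the mean. CKO points lie above all WT points for 8 genes, the groups overlap for Mdm2, and CKO points lie below for Sesn1.

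The promoters are shown because they hold, for some members, the letters that p53 is known to recognise. RefSeq windows of 250 bases before to 50 after an annotated start (GRCm38.p6) were found for 8 of the 10 genes, 9 windows in all, with Sesn1 having 2. Trp53inp1 and Zmat3 had no window in the table. The consensus p53 half-site reads the same on both strands, so a search of the given strand covers both. An exact match was present in 4 of the 9 windows, those of Ccng1, Ddit4l, Mdm2 and the downstream start of Sesn1, against 8.36% of the 32851 windows of all genes. The comparison is a description, since the members are known p53 targets and the search was made after the sequences were seen. Those 4 windows are printed 5′ to 3′ on the gene's strand. Capitals mark the exact half-site in Ddit4l, Mdm2 and Sesn1, and in Ccng1 the 20-base pair whose last 10 bases are the exact half-site GGGCAAGCCT. They lie at chr11:40755237-40755536 on the minus strand (Ccng1), chr3:137623422-137623721 on the plus strand (Ddit4l), chr10:117710709-117711008 on the minus strand (Mdm2) and chr10:41887189-41887488 on the plus strand (Sesn1).
Ccng1: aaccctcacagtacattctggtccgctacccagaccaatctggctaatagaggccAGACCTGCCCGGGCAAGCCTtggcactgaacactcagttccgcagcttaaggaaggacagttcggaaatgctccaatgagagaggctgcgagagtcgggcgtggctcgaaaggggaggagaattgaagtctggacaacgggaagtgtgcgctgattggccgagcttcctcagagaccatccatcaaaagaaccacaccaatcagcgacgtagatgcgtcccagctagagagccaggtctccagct
Ddit4l: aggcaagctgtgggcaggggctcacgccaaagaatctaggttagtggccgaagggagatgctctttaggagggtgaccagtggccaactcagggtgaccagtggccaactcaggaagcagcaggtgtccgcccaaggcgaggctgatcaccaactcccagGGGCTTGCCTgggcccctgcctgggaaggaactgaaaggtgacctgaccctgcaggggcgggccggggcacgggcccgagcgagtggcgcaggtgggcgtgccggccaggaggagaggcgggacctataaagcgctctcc
Mdm2: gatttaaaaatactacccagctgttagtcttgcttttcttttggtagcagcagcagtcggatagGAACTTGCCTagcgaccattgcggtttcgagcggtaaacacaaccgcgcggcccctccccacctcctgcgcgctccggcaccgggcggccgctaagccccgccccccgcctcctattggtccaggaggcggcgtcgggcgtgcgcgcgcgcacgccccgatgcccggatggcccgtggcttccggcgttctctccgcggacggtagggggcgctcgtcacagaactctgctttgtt
Sesn1: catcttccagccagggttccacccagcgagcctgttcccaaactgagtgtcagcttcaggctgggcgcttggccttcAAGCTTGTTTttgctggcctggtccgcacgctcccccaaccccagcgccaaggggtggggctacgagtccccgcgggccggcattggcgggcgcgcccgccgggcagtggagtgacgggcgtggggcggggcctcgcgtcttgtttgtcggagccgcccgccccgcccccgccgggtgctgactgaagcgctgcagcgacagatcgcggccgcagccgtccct

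Among the 8 members with a window, Ccng1 was the only one whose window held a pair of adjoining half-sites, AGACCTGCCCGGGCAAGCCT. The pair begins 195 bases before the annotated start and departs from the consensus at 1 of 20 positions. Sequence outside the windows was not searched. Pairs with at most 2 mismatches and both central C and G bases intact were found in 107 windows, 0.326% of all windows. The half-site of Ddit4l, GGGCTTGCCT, begins 90 bases before its start, that of Mdm2, GAACTTGCCT, 186 bases before and that of Sesn1, AAGCTTGTTT, 173 bases before. Of the genes with a match, Ccng1 and Ddit4l had the 2 highest log2 differences of the set, Mdm2 the smallest in size and Sesn1 the only negative one. The members were selected on these arrays and only 1 was negative. Whether a match goes with the difference therefore cannot be read from them. No match lay in the windows of Phlda3, Ephx1, Sesn2 and Plk2 or at the upstream start of Sesn1, which says only that these letters are absent from those windows. Binding was not measured.

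Among the genes of the cell cycle and of p53 feedback, Ccng1, an atypical cyclin that brings a phosphatase to Mdm2, had the highest log2 difference of the 10. Its brightest probe read 2376.5, 1999.1, 2421.3 and 2497.9 in CKO and 890.6, 938.9, 730.9 and 934.9 in WT. The lowest CKO array thus stood above the highest WT array by more than the spread of either group. On the normalized log2 scale Ccng1 was 11.20 ± 0.14 in CKO and 9.71 ± 0.14 in WT (SD, n = 4 each), a difference of 1.49 (SE 0.10) or 2.82-fold. Its 2 dimmer probes gave log2 differences of 1.23 and 0.71, with CKO above WT on every array for both. The probe with the smallest difference read 227.6 to 298.9 in CKO and 164.8 to 187.2 in WT, so the probes of the gene gave a direction in common but not a common size.

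Mdm2, the ligase that marks p53 for destruction and is itself induced by it, differed little. The brightest of its 3 probes read 1824, 1594.6, 1670.8 and 1580.7 in CKO and 1677.1, 1696.3, 1474.8 and 1599.9 in WT, and the groups overlapped in raw intensity. After normalization it was 10.72 ± 0.04 in CKO and 10.61 ± 0.04 in WT (SD, n = 4 each), a log2 difference of 0.11 (SE 0.03) or 1.08-fold, the only member not past the threshold of the fit. The next probe, ILMN_2850753, gave 0.23 (SE 0.05) and the dimmest, ILMN_1229882, -0.10 (SE 0.10) with overlapping groups. The probes of Mdm2 therefore disagreed in sign. Over the alternatives to the processing the difference of the gene stayed between 0.08 and 0.13.

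Plk2, a polo-like kinase of centriole duplication and of synapses, read 1189.8, 1030, 1070.7 and 948.2 in CKO and 851.7, 753.6, 676.7 and 744.4 in WT. Its log2 level was 10.06 ± 0.06 in CKO and 9.49 ± 0.07 in WT (SD, n = 4 each), 1.49-fold higher in CKO. Zmat3, a zinc-finger protein that binds RNA and acts on splicing and transcript stability, read 632.8, 552.4, 656.4 and 574.8 in CKO and 510.1, 523.4, 454.8 and 418.2 in WT. Its groups did not overlap, and its log2 difference was 0.45 (SE 0.05). Both genes had a single probe and small spread, with SDs under 0.1 on the log2 scale in either group.

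Of the genes that restrain Akt and mTOR, Phlda3 and Ddit4l were among the highest differences and the sestrins went opposite ways. Phlda3, a small protein that competes with Akt for membrane lipids, read 440, 392.4, 359.7 and 431.6 in CKO and 197.7, 202.2, 177.5 and 172.8 in WT. Its log2 level was 8.66 ± 0.19 in CKO and 7.42 ± 0.07 in WT (SD, n = 4 each), a difference of 1.24 (SE 0.10) or 2.37-fold. The second probe, ILMN_2628567, read 393.4, 356.8, 205.7 and 276.4 in CKO and 144.6, 138.6, 159.6 and 170.7 in WT, with a log2 difference of 1.09 (SE 0.24). Its CKO arrays were more scattered, with CKO.3 the lowest, and still lay above all WT arrays.

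Ddit4l, also called Redd2 and known to inhibit mTOR signalling, read 548.5, 429.6, 485.7 and 525 in CKO and 211.3, 200.7, 158.7 and 221.4 in WT. Its log2 level was 8.96 ± 0.15 in CKO and 7.49 ± 0.19 in WT (SD, n = 4 each), a difference of 1.47 (SE 0.12) or 2.77-fold. This single probe lay between percentiles 58.6 and 65.4 of the WT arrays and between 77.7 and 80.9 of the CKO arrays, so that WT cerebella held it in the middle of the range and CKO cerebella in the upper part.

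Sesn1 and Sesn2 encode sestrins, stress-induced proteins that lower mTORC1 activity through the GATOR complexes. Sesn1 read 910.2, 934.1, 876.4 and 668.7 in CKO and 1174.4, 1159, 1062.5 and 1266.8 in WT on its brightest probe, with every CKO array below every WT array. Its log2 level was 9.73 ± 0.18 in CKO and 10.14 ± 0.13 in WT (SD, n = 4 each), a difference of -0.41 (SE 0.11) or 0.75-fold. The other Sesn1 probe, ILMN_3059476, read 124.8 to 168.5 in CKO and 146.6 to 157.4 in WT and overlapped between groups, at a log2 difference of -0.08. As the mean of both probes the Sesn1 difference was -0.24. Which of the 2 annotated starts the probes report is not known here.

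Sesn2 read 195.1, 177.7, 156.9 and 156.6 in CKO and 123.5, 134.1, 120.3 and 110.4 in WT. It was 7.35 ± 0.14 in CKO and 6.76 ± 0.09 in WT (SD, n = 4 each), a log2 difference of 0.59 (SE 0.09) or 1.51-fold. The WT values are dim, at percentiles 43.5 to 50.5 of the arrays, and with a normexp offset of 16 in place of 50 the difference was 0.80. Its second probe, ILMN_1219984, was below the filter on brightness, overlapped between groups and differed by 0.17.

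Trp53inp1, a stress protein that promotes p53-dependent arrest and autophagy, read 860.8, 673.7, 681.6 and 821.6 in CKO and 650.4, 583, 541.4 and 456.6 in WT. Its log2 level was 9.58 ± 0.19 in CKO and 9.03 ± 0.16 in WT (SD, n = 4 each), 1.46-fold higher in CKO. The gap between the lowest CKO and the highest WT array was narrow in raw intensity. The second probe, ILMN_2971479, gave a log2 difference of 0.44, and its raw groups overlapped (366.4 to 469.2 in CKO, 301.2 to 368.7 in WT).

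Ephx1, the microsomal epoxide hydrolase that detoxifies reactive epoxides, read 404.1, 341.8, 380.5 and 412.6 in CKO and 186.3, 170, 147.8 and 161.2 in WT. Its log2 level was 8.58 ± 0.16 in CKO and 7.23 ± 0.09 in WT (SD, n = 4 each), a difference of 1.35 (SE 0.09) or 2.54-fold. The 2 groups were far apart, with no CKO array near the WT range. Of the 10 genes, 4 (Ccng1, Ddit4l, Ephx1 and Phlda3) thus had log2 differences of 1.24 to 1.49, at ranks 3, 4, 6 and 8 of the 12912 genes, and 5 (Sesn2, Plk2, Trp53inp1, Zmat3 and Mdm2) had differences of 0.11 to 0.59.

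**Figure D2:**
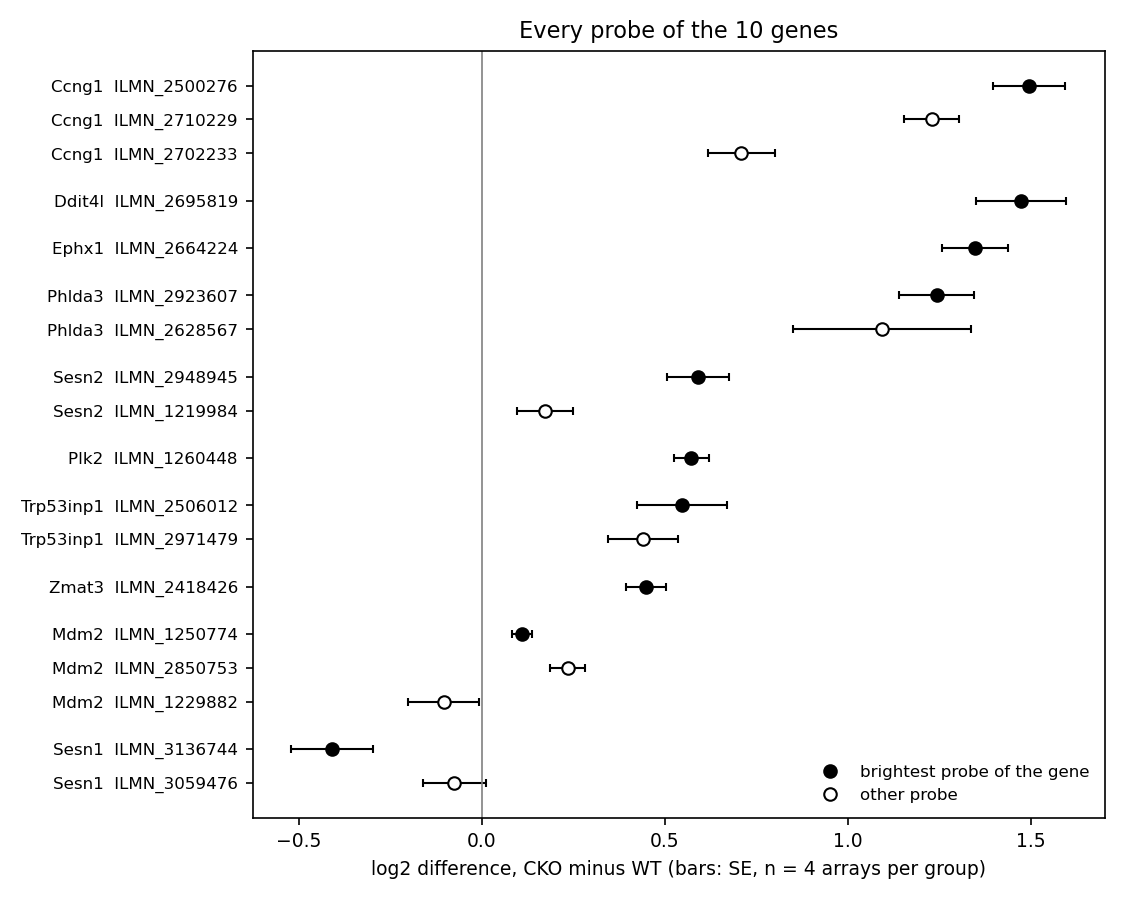
Log2 difference (CKO minus WT) of all 18 probes, with bars for the SE from the group SDs (n = 4 arrays per group), filled for the brightest probe of a gene and open for its other probes. The 3 Ccng1 probes range from 0.71 to 1.49, the Mdm2 probes from -0.10 to 0.23, and both Sesn1 probes lie below 0.

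The arrays of a group differed from each other in ways the members partly shared. The mean deviation of the 10 genes from their 8-array means was 0.38, 0.37, 0.28 and 0.45 in CKO.1 to CKO.4 and -0.35, -0.35, -0.42 and -0.36 in WT.1 to WT.4. CKO.4 was the highest CKO array for 6 of the 9 members that were higher in CKO, and CKO.3 the lowest for 4 and CKO.2 for 4. WT.3, the WT array whose Xist level was as dim as in CKO, stood on the WT side of every CKO array for all 10 members, a position that the selection of the members on these arrays bears on. With the Xist level as a covariate the log2 differences were 1.64 for Ccng1, 1.72 for Ddit4l, 1.26 for Phlda3, 1.47 for Ephx1 and -0.39 for Sesn1. A single Xist-dim WT array carries that adjustment.

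**Figure D3:**
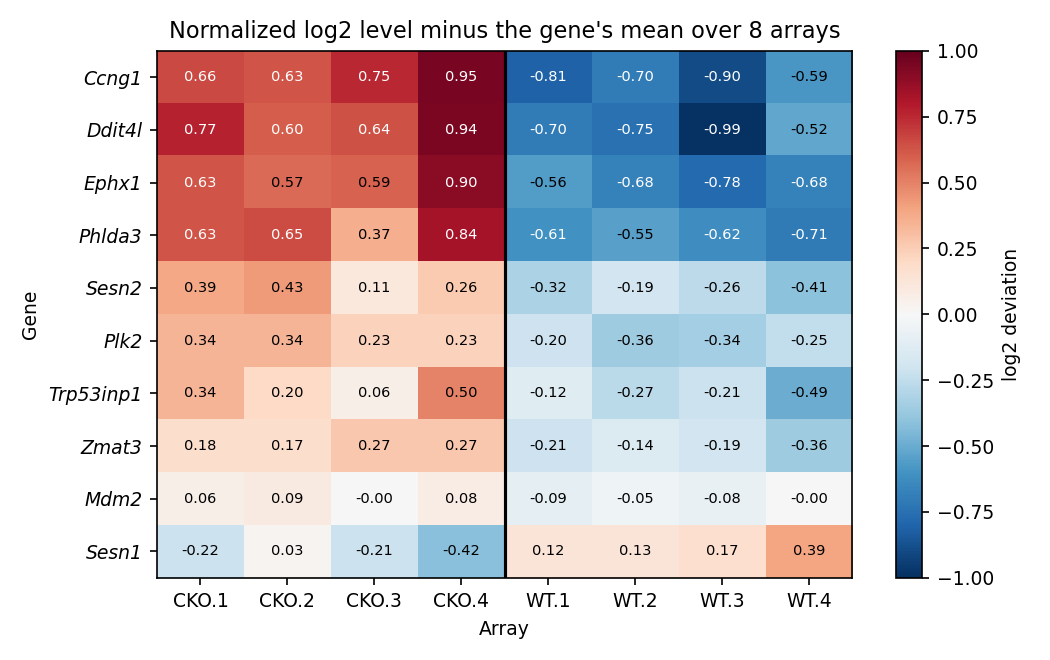
Normalized log2 level of each gene minus its mean over the 8 arrays, with 4 CKO arrays left of the line and 4 WT arrays right of it, red for higher and blue for lower. Ccng1 runs from 0.63 to 0.95 in CKO and from -0.90 to -0.59 in WT, and Mdm2 stays within 0.1 of its mean on all arrays.

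The members are known targets of p53, and other genes of the same pathway, none of them a member, were taken from 3 lists of p53-induced genes. Of 31 tested, 11 rose and 2 fell in CKO, 41.9% called against 17.8% of all genes, with a median log2 difference of 0.10 against 0.0075 over all genes. The lists were chosen with earlier results of these data known, so this share is a description and not independent evidence on the pathway. Among 13 tested genes of arrest, growth control and stress, 5 rose and 1 fell. Cdkn1a, the cyclin-dependent kinase inhibitor p21, read 2093.4, 1785.2, 1769.6 and 1884.6 in CKO and 1238.8, 1205.6, 1060.8 and 1099.5 in WT and rose by 0.78 (SE 0.07, limma adjusted p = 2.17e-05). Dcxr, a carbonyl reductase, rose by 0.87 (adjusted p = 1.67e-05), the thiamine transporter Slc19a2 by 0.75 (adjusted p = 2.30e-04) and the adenylate kinase Ak1 by 0.71 (adjusted p = 5.14e-05). Outside the naming rule, Rprm, a cell cycle arrest protein, rose by 0.40 (adjusted p = 0.0139) and Ddit4, the closest relative of Ddit4l, fell by 0.27 (adjusted p = 0.0320). The other 7 did not pass, among them Gadd45a at -0.22 (adjusted p = 0.144).

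Of 12 tested p53-induced genes of cell death, 6 rose and 1 fell, with a median log2 difference of 0.21. The death receptor Fas rose by 0.52 (adjusted p = 7.65e-04), the BH3-only protein gene Bbc3 (Puma) by 0.47 (adjusted p = 0.00841) and the nuclease Aen by 0.44 (adjusted p = 0.00100). These sizes depend on the probe. The other probes gave 0.93 and 0.08 for Fas, 0.29 and 0.03 for Bbc3, and 0.31 and 0.20 for Aen. Siva1, an apoptosis-inducing protein, read 1069.3, 1009.4, 1560.2 and 1119.1 in CKO and 2206, 2427.9, 2354.9 and 1802 in WT and fell by 0.84 (adjusted p = 6.30e-04). The groups of Siva1 did not overlap. Named outside the rule, Apaf1 rose by 0.31, Ei24 by 0.28 and Bid by 0.24 (adjusted p = 0.0256, 0.0157 and 0.0405). Of 6 tested p53-induced genes of DNA repair and nucleotide supply none passed in limma, at 0% called. The translesion polymerase Polk was at 0.35 (adjusted p = 0.0525, groups separate after normalization and overlapping in raw intensity), and it passed with the filter at the median probe (0.0466), with the replicate block (0.0471), without WT.1 (0.0359) and with the Xist covariate (0.0271, at a log2 difference of 0.68). The damage sensor Ddb2 was at 0.10 (adjusted p = 0.454). With the Xist covariate 6 of the p53-induced genes, Polk among them, rose and 1 fell. Among the calls lost were those of Bbc3 (adjusted p = 0.064, at a log2 difference of 0.61), Aen (0.0553, at 0.42), Rprm (0.344, at 0.28) and Ei24 (0.422, at 0.16). The calls of Ddit4, Apaf1 and Bid were also lost on leaving out single arrays, at adjusted p up to 0.474, 0.0795 and 0.428 over all settings that ended them.

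Of 15 tested regulators upstream of p53, 0 rose and 2 fell, 13.3% called against 17.8% of all genes, with a median log2 difference of -0.05. The damage kinase Atm read 134.9, 109.9, 136.8 and 116 in CKO and 194.9, 208.1, 169.6 and 140.4 in WT and fell by 0.49 (adjusted p = 0.00478, and 0.119 with the Xist covariate). Chek2, a kinase that Atm activates, fell by 0.27 (adjusted p = 0.0365), and this call was lost on leaving out any one array other than CKO.2 or CKO.3 (adjusted p from 0.0518 to 0.111) and with the Xist covariate (adjusted p = 0.116). Mdm4, the partner of Mdm2, was at -0.01 (adjusted p = 0.937). The p53 gene itself, Trp53, was not analysed here.

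Relatives of the members by sequence family went different ways. Of 16 tested paralogues 2 rose and 4 fell, with a median log2 difference of -0.03. Zmat4 rose by 0.44 (adjusted p = 0.00125) and Phlda1 by 0.36 (adjusted p = 0.00436), and both calls were lost with the Xist covariate (0.0948 and 0.179). The mitotic kinase Plk1 fell by 1.10 (adjusted p = 0.0210) and Plk4, which starts centriole duplication, by 0.51 (adjusted p = 0.00331, and 0.199 with the Xist covariate), while Plk2 was higher. Plk1 read 416.3, 421.6, 1067.8 and 384.9 in CKO and 1558.5, 1764.5, 746 and 857.8 in WT, with CKO.3 inside the WT range, and its call was lost on leaving out any CKO array but CKO.3 (adjusted p from 0.0547 to 0.065) or either of the brightest WT arrays (0.0647 and 0.0742), and with the Xist covariate (0.575). Sesn3 was at -0.09 (adjusted p = 0.496) and Ccng2 at 0.03 (adjusted p = 0.846). The differences between a member and its paralogue were not tested.

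Some members are also known targets of other stress pathways, and these lists had shares called of 10% to 30.8% against 17.8% of all genes. Sesn2 is induced by the amino acid and endoplasmic reticulum response of ATF4, of whose 13 tested genes 3 rose and 1 fell. Asns, asparagine synthetase, rose by 0.35 (adjusted p = 0.00241), Vldlr by 0.44 (adjusted p = 0.00829) and Cebpb by 0.27 (adjusted p = 0.0151), while the serine synthesis enzyme Phgdh fell by 0.51 (adjusted p = 4.61e-04). Trib3, a kinase-like protein induced by ATF4, was at -0.02 (adjusted p = 0.917) and Ddit3 (CHOP) at -0.10 (adjusted p = 0.517). Ephx1 is induced by the antioxidant factor NRF2, of whose 11 tested genes 1 rose and 2 fell. Srxn1, sulfiredoxin, rose by 0.45 (adjusted p = 0.00126), Gstm1 fell by 0.41 (adjusted p = 8.66e-04) and Gclm by 0.30 (adjusted p = 0.00776). The dimmer Gstm1 probe was at -0.03. Nqo1, a widely used reporter of NRF2, was at -0.09 (adjusted p = 0.434). With the Xist covariate the calls of Cebpb (0.291) and Srxn1 (0.116) were lost, and that of Cebpb with median scaling (0.0584).

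Sesn1 is a known target of the FOXO factors, of whose 10 tested genes 1 rose and 1 fell. Cdkn1b, the inhibitor p27, fell by 0.51 (adjusted p = 0.00721), but was at -0.20 as the mean of its probes (0.0597) and lost its call with the Xist covariate (0.296). Txnip rose by 0.32 (adjusted p = 0.0389, and 0.237 with the Xist covariate). Leaving out WT.4, where Txnip was highest, gave an adjusted p of 0.00891, and leaving out each of 5 other arrays lost the call, at adjusted p from 0.0938 to 0.111. Plk2 is also induced by neuronal activity, and of 10 tested immediate early genes 1 rose, 0 fell and the median log2 difference was 0.05. Egr1 rose by 0.69 (adjusted p = 0.00470, and 0.0719 with the Xist covariate), and the dendritic gene Arc was at 0.22 (adjusted p = 0.102).

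**Figure D4:**
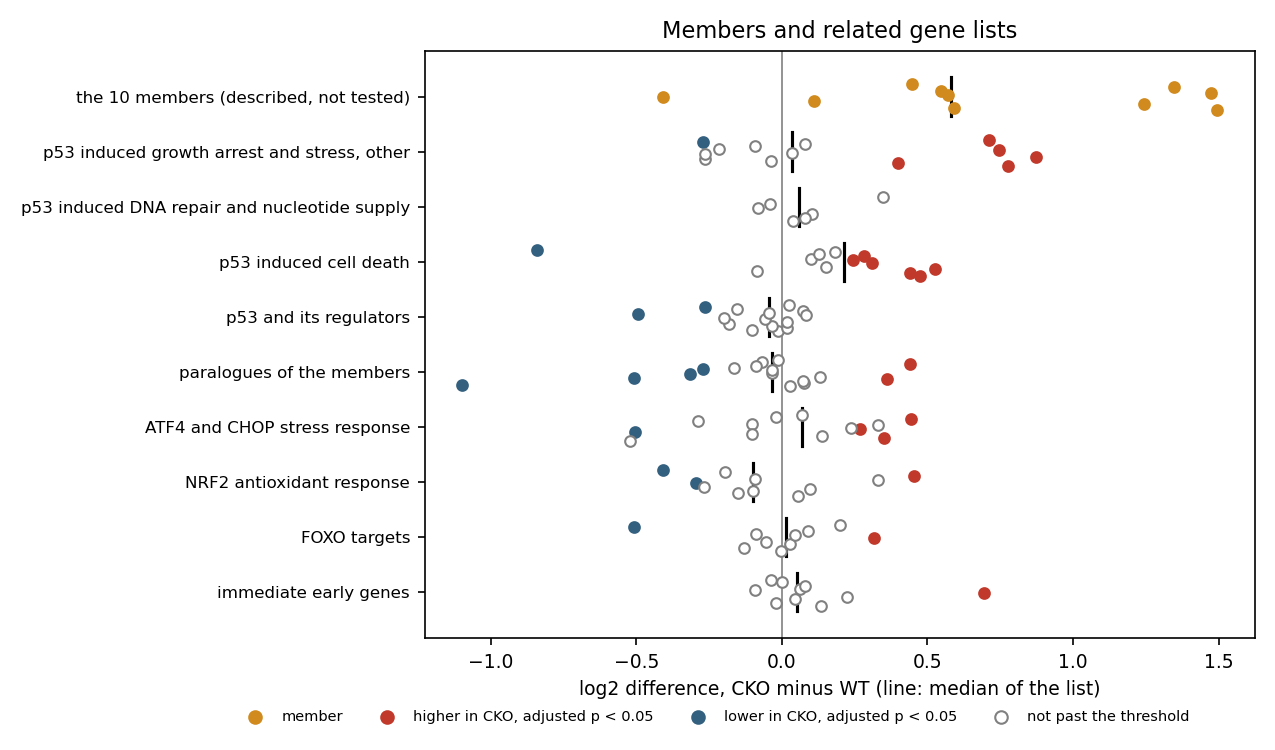
Log2 difference (CKO minus WT) of each tested gene in the related lists, filled red where higher and blue where lower in CKO at an adjusted p of 0.05 and open where not past it, with a line at each list's median; the 10 members are shown in orange without a test. The members' median is 0.58, those of the 3 other lists of p53-induced genes are 0.03, 0.06 and 0.21, and that of the regulators is -0.05.

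Markers of several cell types moved with the same contrast, and their part in the differences of the 10 genes was not tested. All 6 tested markers of granule cell progenitors fell, and their summed normalized intensity was 11279 to 14189 in CKO and 19536 to 23961 in WT. Their log2 differences included -1.34 for Ccnd2 (adjusted p = 2.77e-06), -1.84 for Mfap4, -1.53 for Insm1 and -1.30 for Barhl1. Zic1 and Ccnd1, the brightest of the list at WT log2 levels of 13.28 and 12.20, weigh most in the sum. They were at -0.63 and -0.28, and the groups of Ccnd1 overlapped (adjusted p = 0.0472). Atoh1, Pax6, Mycn and Gli1 of the same list were below the filter on dim probes and not tested, at -0.03, 0.08, -0.09 and -0.02. Of 5 tested Purkinje markers 3 rose (Foxp2, Rora and Pcp2), with sums of 11191 to 12095 in CKO and 7405 to 8060 in WT. Calb1 and Pcp4 were below the filter and not tested, at 0.09 and -0.08. Of 11 tested markers of microglia and macrophages 9 rose, with Lyz1 at 1.05, C1qb at 0.74, Fcgr3 at 0.73 and Aif1 at 0.63, and sums of 2621 to 2922 in CKO and 1777 to 1938 in WT. The sizes for Lyz1 and Aif1 depend on the probe. Other Lyz1 probes, below the filter, were at -0.02 and -0.08. Other Aif1 probes were at 0.19 and, below the filter, at -0.07. Of 10 tested endothelial and pericyte markers 4 rose (Vtn, Emcn, Kcnj8 and Pecam1, by 0.20 to 0.52), with sums of 2367 to 3185 in CKO and 2085 to 2282 in WT. The call of Pecam1 (adjusted p = 0.0490) was lost under 15 of 20 settings, every omission of a single array included, that of Emcn under 6 and that of Kcnj8 under 5. With the Xist covariate Pcp2 (0.117), Fcgr3 (0.489) and Vtn (0.0833) lost their calls, and Fcgr3 also without CKO.4, WT.2 or WT.4 (0.0562 to 0.0735).

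None of 9 tested meningeal fibroblast markers passed in limma, with Lum at 0.84 and Col1a1 at 0.50 (past the threshold with the replicate block, 0.0309, and without CKO.1, 0.0262, or CKO.2, 0.047), and their sum was 877 to 4367 in CKO, with the CKO.3 array the highest for both genes, against 734 to 1125 in WT. Of 6 tested markers of choroid plexus and ependyma 2 fell, Otx2 at -1.91 and Ttr at -1.09, with sums of 839 to 1323 in CKO and 2166 to 2665 in WT. Otx2 made up most of the WT sums, reading 252.4 to 593.2 in CKO and 1471.8 to 2032.2 in WT in raw intensity. These sums therefore do not speak for the list as a whole, and which cells the fall of Otx2 came from was not tested. The median log2 difference of the choroid plexus and ependyma list was -0.03, with Clic6 at 0.27, Foxj1 at 0.19, Kl at 0.10 and Folr1 at -0.16, none past the threshold. The call of Ttr was lost without CKO.4 (0.0558) or WT.4 (0.0513) and with the Xist covariate (0.317). Among 7 tested markers of astroglia 1, Aqp4, fell by 0.47 (a call lost with the Xist covariate, 0.298), and Sox9 was at -0.14, with sums of 20566 to 26498 in CKO and 21088 to 25079 in WT. Slc1a3, the brightest of the list at log2 levels of 13.98 in CKO and 14.06 in WT, weighs most in these sums. Of 2 tested red blood cell genes none passed, with Hba-a1 at 0.14 and Alas2 at 0.08, and the sums overlapped (17466 to 28055 in CKO, 16098 to 24056 in WT). Without CKO.3 the log2 difference was 1.49 for Ccng1, 1.33 for Phlda3 and -0.41 for Sesn1.

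The genes most like each member by Pearson's r over the 8 arrays, a measure that the difference between the genotypes dominates, came from varied functions. Cdkn1a was the closest gene to Phlda3 (r = 0.997) and the third closest to Ephx1 (r = 0.990). Rora, a nuclear receptor of Purkinje cells, was the closest to both Ccng1 (r = 0.993) and Ddit4l (r = 0.996). Sesn1 was most like Plxna2, a semaphorin receptor (r = 0.981), and the RNA-binding protein genes Hnrnpk (r = 0.976) and Hnrnpa2b1 (r = 0.974). Sesn2 was most like Tmem132d (r = 0.989), Plk2 like the ATP-gated channel P2rx2 (r = 0.992) and Mdm2 like Ranbp6 (r = 0.995). Within the groups, after removing each group's mean, Ccng1 and Ddit4l were related at r = 0.845, the highest of 45 pairs of members. Ccng1 and Phlda3 were at 0.225, Zmat3 and Plk2, both higher in CKO, at -0.708, and Sesn1 and Zmat3 at -0.759, the lowest. The values are over 8 arrays that were normalized together, so these are descriptions.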

How the data were processed

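Cerebellar RNA of 4 CKO and 4 WT embryos was measured on Illumina BeadArrays. The deposited table holds linear intensity, exported from BeadStudio per the submitters' processing notes, without detection p-values or control probes, so limma's neqc was not used and its stated fallback was. A further deposited table of log2 values had a median of 6.98 and differed from quantile normalization of those intensities by at most 0.0137. The BeadStudio version and genome build are not given in the sources used here.

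Intensities were corrected by normexp (offset 50), quantile-normalized and taken to log2 in limma 3.58.1 (R 4.3.3). A gene is its brightest probe; 12912 genes above the lower quartile (log2 6.26) were tested with lmFit and eBayes, two-sided, Benjamini-Hochberg threshold 0.05. The platform annotation gave a symbol for 23978 probes. The offset pulls differences of dim genes towards 0. SEs of the members are from group SDs; other SEs are limma's. Lists matched older symbols through RefSeq. The naming rule took every member, Mpp5 and Cdkn1a, up to 4 called genes per list by size (filled to 2 by smallest p), and the 3 genes most correlated with each member, of which some are given. Clic6, Foxj1, Kl, Folr1, Rprm, Ddit4, Gadd45a, Apaf1, Ei24, Bid, Mdm4, Sesn3, Ccng2, Trib3, Ddit3, Nqo1, Atoh1, Pax6, Mycn, Gli1, Calb1 and Pcp4 were named outside it, with their values seen. So were Zic1, Ccnd1 and Slc1a3, which are not in the counts of named calls. The members and lists were chosen with earlier results of these data known, and the promoter search after the sequences were seen. The fit was tested on simulated data. Alternatives are listed in the closing section. Replicates are separate animals, few in number, which bounds the precision. Plots used matplotlib 3.10.9.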

Additional observations from a re-analysis of the deposited data

Results flagged for a closer look

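The gap of the outermost array to its nearest neighbour, as a share of the group's range, exceeded Dixon's 95% critical value in 6 of 148 groups of 4 arrays; chance flags about 1 in 20. Among the members this was met by the brightest Sesn1 probe alone, where WT.4 was at a log2 level of 10.33 and the other WT arrays at 10.06 to 10.11; without WT.4 the Sesn1 difference was -0.35. In CKO.3, Ak1 was at 9.25 against 9.39 to 9.42 on the other CKO arrays, Plk1 at 10.01 against 8.59 to 8.80, and the meningeal marker Lum at 8.63 against 6.52 to 6.73. In WT.4, Txnip was at 9.62 against 9.24 to 9.29 and Egr1 at 8.79 against 8.32 to 8.37 on the other WT arrays.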

How the results depend on the processing

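The 20 alternatives covered the normexp offset, no background correction, median scaling, the authors' log2 values, 2 filters, the mean of a gene's probes, array weights, an intensity trend, a replicate block, the Xist covariate and arrays left out. No member changed sign in 200 recomputed differences, a count that is a description. The members were selected on these arrays and none had overlapping normalized groups, so leaving out arrays could not change a sign. The 2 filters, the intensity trend and the replicate block leave a member's difference as it is. The members' median, 0.58, was 0.70 with an offset of 16 and 0.56 to 0.64 with an array left out; Ccng1 was 1.14 and Sesn2 0.38 as the mean of their probes. Mpp5 fell under every setting where it was tested (-1.34 with an offset of 16 to -0.42 as the mean of its probes; leaving out an array gave -0.89 to -0.83) and was not tested with the filter at the median probe. With the Xist covariate 792 genes were called in place of 2297, and 7 of the other p53-induced genes in place of 13. Of 47 named calls 26 were lost, and the cause was not tested. The log2 difference under it was larger for some of them (Bbc3 0.61, Egr1 0.81, Vtn 0.68) and smaller in size for others (Rprm 0.28, Pcp2 0.39, Plk1 -0.49). With an array left out the counts of all genes and of the other p53-induced genes were 1593 to 2567 and 10 to 13. Of the named calls 21 held under every setting. Hba-a1, not called, changed sign with median scaling (-0.083) and the Xist covariate (-0.14), and Alas2 with the Xist covariate (-0.060). With the replicate block 2150 genes were called and 13 of the other p53-induced genes. Same-numbered arrays correlated between -0.05 and 0.15 in their deviations and 1 of 4 correlated best with its own number. These values gave no sign that the numbers pair the animals, but so few arrays cannot exclude a weak pairing. Among the named genes the block lost the calls of Bid (adjusted p = 0.071), Txnip (0.0793) and Pecam1 (0.0797) and gained those of Polk (0.0471) and Col1a1 (0.0309). Sesn2 and other dim probes lie near background, which limits their differences.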

Other observations

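Among the 3 genes whose levels followed Ccng1 most closely over the arrays was Prm1 (r = 0.989), a protamine that packs sperm DNA. It read 11547, 8907.6, 10037.6 and 12266.8 in CKO and 82.9, 90.8, 95.5 and 86 in WT, where 3 of 4 arrays lay below the filter on dim probes, and was at least 141-fold higher in CKO with those arrays raised to the filter level (limma adjusted p = 5.44e-14). All 4 CKO arrays were far above all WT arrays, and this difference dominates the r with Ccng1. After removing each group's mean, Prm1 and Ccng1 were related at r = 0.437. Every CKO animal and no WT animal carried the Cre transgene, so presence of the transgene and loss of Pals1 cannot be told apart here. Which transcript the Prm1 probe reported was not tested.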
